A study of Caenorhabditis elegans with 9 samples.

Results

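The vacuolar proton pump (V-ATPase) and the genes that build the lysosome membrane and the gut granules were followed in whole Caenorhabditis elegans kept with or without graphene oxide. The 31 genes were picked by name from 46284 gene IDs. They are 21 V-ATPase genes, 5 genes of lysosome membrane proteins, 3 genes needed for gut granules and 2 regulators, and each had a row in the table of expression values. The study took 9 samples of 500 animals of the wild-type strain N2 after 12 h in liquid culture. A control group was mock-treated (n = 3), a GO group received graphene oxide, a carbon sheet with oxygen groups (n = 3), and a GONH2 group received the amino-functionalized form (n = 3). The sources used here do not give the dose or the age of the animals. Nor do they say whether replicates were grown separately, and the p values then reflect the variation among these samples only, which may be technical.

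The V-ATPase is a rotary machine. Its V1 part, in the cytosol, burns ATP, and its V0 part, in the membrane, carries protons into the lumen of lysosomes, endosomes and, in some epithelia, across the cell surface. In C. elegans the subunit a of V0 exists as isoforms in different tissues, among them VHA-6 at the apical face of the intestine, where it acidifies the gut lumen. Intestinal cells also hold gut granules, lysosome-related organelles that need the GLO proteins, and HLH-30, the homologue of mammalian TFEB, is a transcription factor for lysosome and autophagy genes.

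Levels are given in FPKM, read fragments scaled to the length of the transcript and to the size of the library, so that genes can be set beside each other per length. Each library's FPKM added up to 955606 to 1010904, and depth is unknown because FPKM carry no read totals. Libraries of one group correlated at 0.986 or more and libraries of different groups at 0.983 to 0.992 (log2 values, 12775 genes). Whole animals were extracted, so fewer cells of a type and less RNA per cell cannot be told apart. The defining markers of the intestine (8 genes), excretory cell (7), germline (7), body muscle (5) and neurons (6) were all above 1 FPKM in at least 1 library. Sperm markers (7) did not pass the filter on low values, with 0.178 to 7.48 FPKM in sum. Of 6 hypodermis markers 4 passed that filter, and 1 was under 1 FPKM in every library. The hypodermis markers gave 337 to 523 FPKM in sum in the controls, 401 to 468 with GO and 327 to 522 with GONH2.

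No member passed the test in any comparison. Tests were made with limma on log2(FPKM + 1) over 12849 genes that reached 1 FPKM in 3 or more libraries, with Benjamini-Hochberg adjustment and a threshold of 0.05. Of the 31 members 30 could be tested, the exception being ncr-2. With GO 0 of 30 members passed against 1.26% of all genes tested, with GONH2 0 of 30 against 0.436%, and between the materials 0 of 30 against 0.132%. At an unadjusted p under 0.05 there were 6, 2 and 1 members, against 7.74%, 5.31% and 4.65% of all genes. An F test over all groups at once called 0 of 30 members, against 0.957% of all genes, and 4 members (13.3%) had an unadjusted p under 0.05 in it, against 6.5% of all genes. With background rates this low, 0 of 30 lies near the background and is not a result about the members. The same holds for the counts of 0 passed that are given by role and by list below.

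The intervals were narrow. The 95% confidence interval of the difference lay wholly within a 1.25-fold change (0.322 on the log2 scale) in either direction for 24 of 30 members with GO, where 52.5% of all genes tested had such an interval. For GONH2 against control it did so for 26 of 30 members, against 55.3% of all genes, and for GONH2 against GO for 25 of 30, against 54.6%. Differences of 1.25-fold or more therefore lay outside the interval for most members, which does not show that the levels were equal. The members are mostly abundant genes, and the V-ATPase genes varied within groups by a median SD of 0.056 (log2) where 4296 genes in the same range of mean FPKM varied by 0.058.

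**Figure D1:**
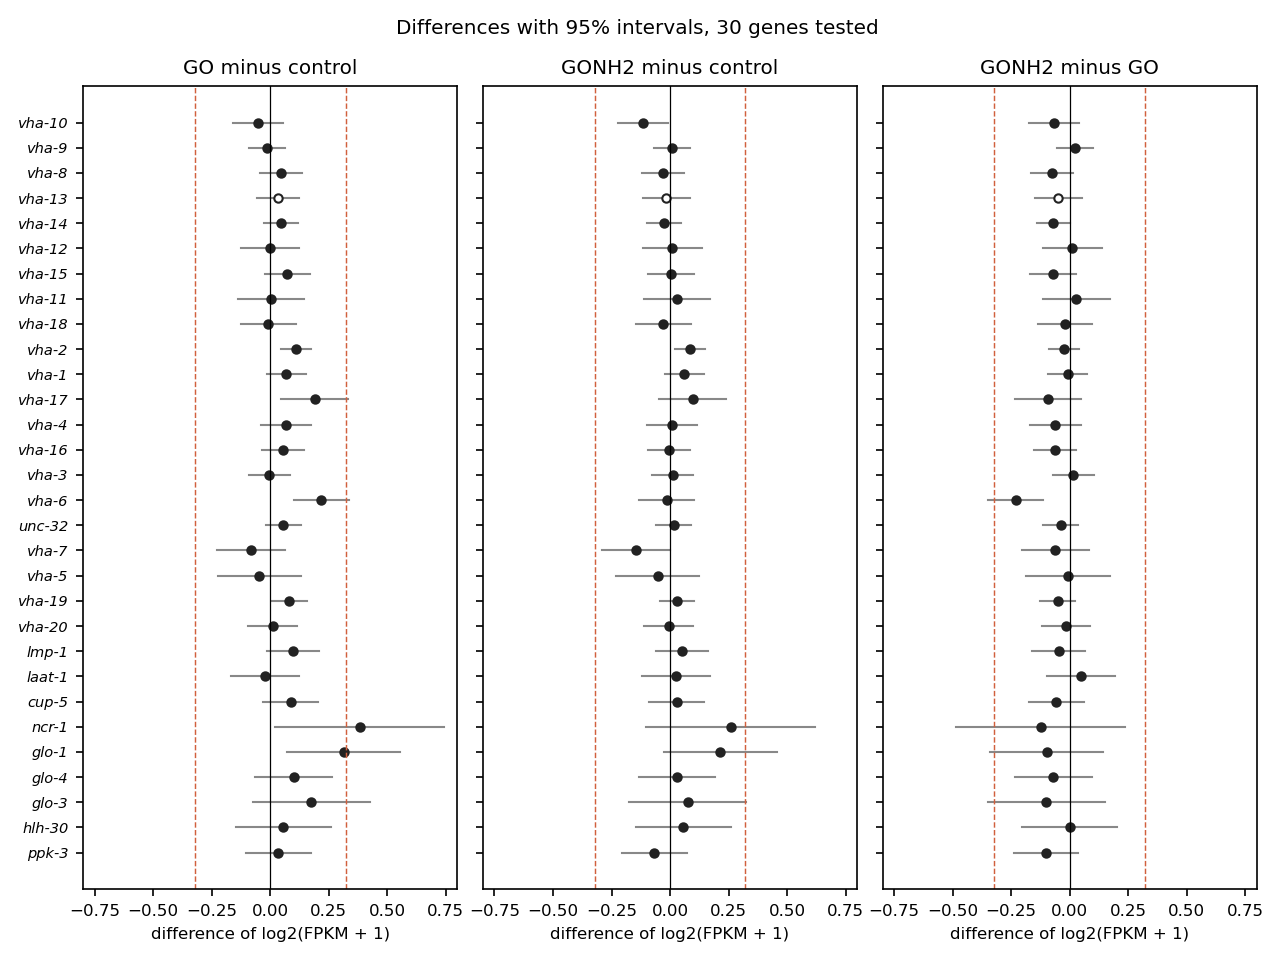
Difference of log2(FPKM + 1) with its 95% confidence interval for the 30 members tested, in 3 panels, each of the materials against control and then GONH2 against GO. Dashed lines mark a 1.25-fold change, the open circle is vha-13 with its listed zero set to missing, and 24, 26 and 25 intervals lie within the dashed lines when the zero is kept.

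The median difference of the 30 members with GO was 0.055 on the log2 scale, beside 0.024 over all genes tested, and 22 members had a positive difference, where 61.6% of all genes did. For the 21 V-ATPase genes alone the median was 0.046. It was 0.018 after median-of-ratios scaling and −0.0045 after quantile normalisation, beside −0.0019 and −0.017 over all genes. The sign of the V-ATPase median thus depended on the scaling, while it lay above the median of all genes under each. With GONH2 the median was 0.010066 for the members and 0.0029 for the V-ATPase genes, beside 0.0031 over all genes. For GONH2 against GO the medians were −0.059 and −0.052, beside −0.024 over all genes.

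In V1, 0 of 9 genes passed in any comparison, where 1.26% (GO), 0.436% (GONH2) and 0.132% (between the materials) of all genes did. The differences of the 9 genes with GO ran from −0.051 to 0.074. vha-10, which encodes subunit G of the peripheral stalk, had the highest mean level of V1 (WBGene00006919, chromosome I, 5609341 to 5610270, reverse strand). It had 369.5, 397 and 353 FPKM in the control libraries, 376, 354 and 349 with GO and 352, 339 and 339.8 with GONH2. All 3 GONH2 libraries lay below all 3 controls, by −0.12 on the log2 scale (95% interval −0.22 to −0.0098, unadjusted p = 0.0357), and the adjusted p was 0.857. Without control replicate 2 the difference was −0.071. The next in level were vha-9 (subunit F), at 324 FPKM over the 9 libraries, and vha-8 (subunit E, the partner of G in the stalk).

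vha-8 (WBGene00006917, chromosome IV, 6791074 to 6792455, forward strand) had 242, 262 and 237 FPKM in the controls, 255, 258 and 250.2 with GO and 236, 244 and 244 with GONH2. The controls overlapped both treated groups, and the GONH2 libraries lay below the GO libraries (−0.077 ± 0.039, adjusted p = 1). Here and below, ± gives the standard error for log2 differences and the SD for levels, shares, sums and ratios. vha-14, for subunit D of the central shaft, had 193, 204 and 189 FPKM in the controls, 199.6, 201 and 204 with GO and 195, 189 and 193 with GONH2. Again the GONH2 libraries lay below those of GO and overlapped the controls (−0.07 ± 0.031, adjusted p = 1). vha-12, which encodes subunit B of the catalytic ring, had 169 ± 9.82 FPKM in the controls, 169 ± 10.7 with GO and 169.8 ± 4.37 with GONH2 (mean ± SD, n = 3). vha-11 (subunit C) had 108 ± 7.15, 108 ± 7.898 and 109.9 ± 2.79 FPKM, and its interval for GO was −0.14 to 0.14.

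Subunit H, which couples V1 to V0, is encoded by vha-15 and vha-18. vha-15 had 105, 111 and 101 FPKM in the controls, 112, 111 and 111 with GO and 101, 106 and 111 with GONH2. vha-18, the lowest of V1, had 62.6, 67.7 and 61.3 FPKM in the controls, 64.98, 64.9 and 60.6 with GO and 65.3, 62.6 and 59.9 with GONH2. In the controls vha-15 made up 62.4% ± 0.281 of the FPKM of the pair, in GO 63.7% ± 0.902 and in GONH2 62.9% ± 2.06. The GO libraries lay above the controls in this share, by 1.33 percentage points (two-sided exact permutation test, p = 0.1, the smallest p that 3 against 3 libraries allow).

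vha-13, the gene of the catalytic subunit A (WBGene00013025, chromosome V, 14351709 to 14354422, forward strand), was listed at 0 in 1 library. It had 224, 228 and 209 FPKM in the controls, 220.3, 223 and 232 with GO, and 219, 215.6 and 0 with GONH2. The 8 libraries above 0 lay between 209 and 232 FPKM. The next gene on the same strand, Y49A3A.3 (14354410 to 14355741), shares 13 exon bases with vha-13, was also listed at 0 in GONH2 replicate 3, and had 21.9 to 28.1 FPKM in the other 8 libraries. The genes on each side of this pair, cept-2 and cyn-1, had 76.0 and 188 FPKM in that library and 76.0 to 80.6 and 178 to 194 over all 9. In that library 24 of the genes tested were listed at 0 although their median over the libraries above 0 was at least 10 FPKM. In the other libraries 21 to 29 such genes were. Whether the zero of vha-13 reflects expression was not tested. With the zero kept the difference of GONH2 from control was −2.61 ± 1.78 (adjusted p = 1), and with it set to missing, −0.016 ± 0.043 over 3 against 2 libraries (adjusted p = 1.0). For GO against control the difference was 0.032 either way, with an interval of −4.03 to 4.098 when the zero was kept and −0.057 to 0.12 when it was not.

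**Figure D2:**
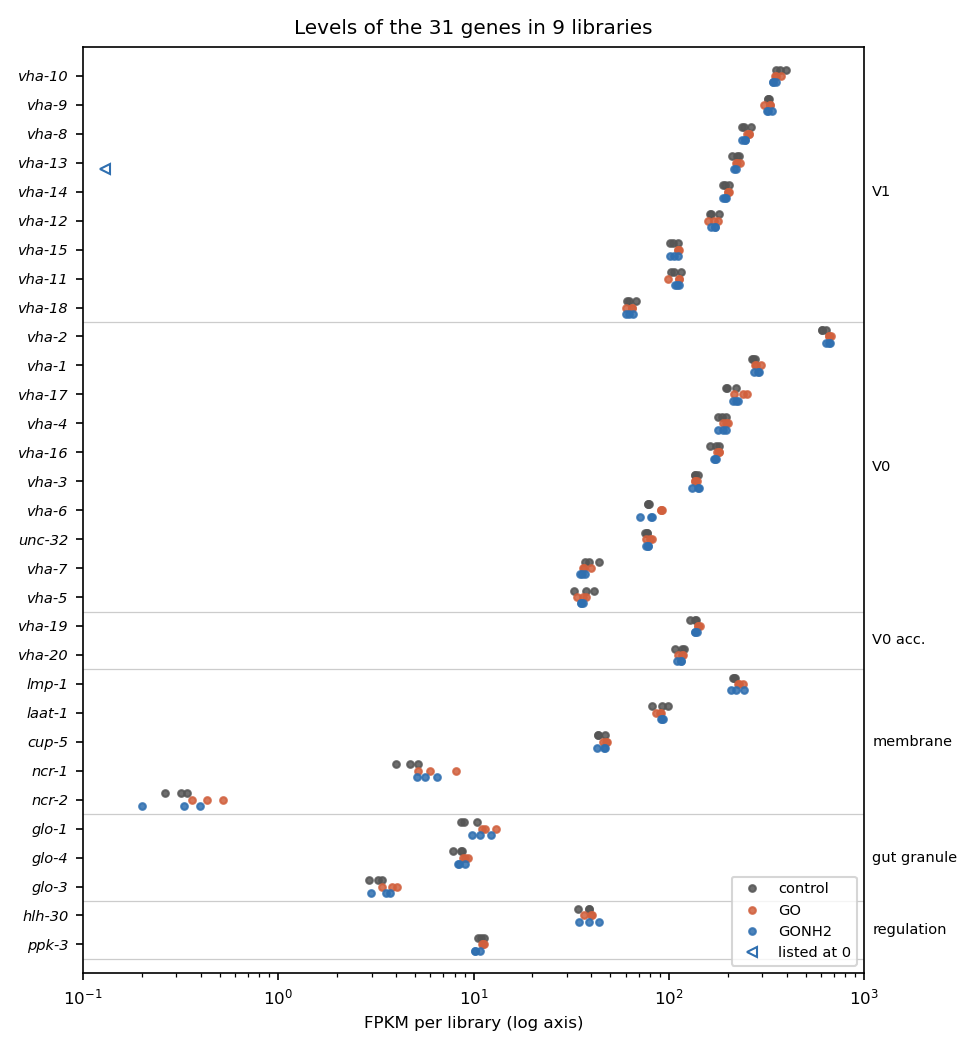
FPKM of the 31 members in each of the 9 libraries on a log axis, ordered by part of the pump or organelle and by level, with control, GO and GONH2 libraries in separate colours. Levels run from ncr-2, at 0.201 to 0.524 FPKM, to vha-2, at 604 to 673, and the open triangle marks the library in which vha-13 was listed at 0.

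In V0, 0 of 10 genes passed, where 1.26% of all genes passed with GO. With GO 3 of the 10 had an unadjusted p under 0.05, against 7.74% of all genes. The ring of subunit c, which turns as protons pass, is encoded by vha-1, vha-2 and vha-3. vha-2 had the highest level of all members (WBGene00006911, chromosome III, 9782164 to 9783224, forward strand), with 610.3, 634 and 604 FPKM in the controls, 663, 673 and 662 with GO and 639, 657 and 666 with GONH2. Both treated groups lay above the controls without overlap. The difference was 0.11 ± 0.028 for GO (unadjusted p = 0.00379, adjusted p = 0.177) and 0.086 ± 0.028 for GONH2 (unadjusted p = 0.0151, adjusted p = 0.61). The gene R10E11.6 on the same strand shares 219 exon bases with vha-2 and had 14.5 to 19.01 FPKM.

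vha-1 lies on the same strand of chromosome III with 400 bases between it and vha-2. It had 269, 275 and 266 FPKM in the controls, 297, 276 and 277 with GO and 286, 272 and 288 with GONH2. The GO libraries lay above the controls and the GONH2 libraries overlapped them (GO 0.069 ± 0.036, adjusted p = 0.745; 0.035 without GO replicate 1). vha-3, on chromosome IV with 892 bases between it and vha-11 on the same strand, had 137 ± 2.99, 137 ± 1.86 and 138 ± 6.82 FPKM. The share of subunit c FPKM that came from vha-3 was 13.4% ± 0.0498 in the controls, 12.6% ± 0.0660 with GO and 12.9% ± 0.452 with GONH2, with both treated groups below the controls (two-sided exact permutation test, p = 0.1 for each, the smallest possible). This share has vha-1 and vha-2 in its divisor, and the level of vha-3 itself overlapped between the groups. These genes encode closely related proteins, and how reads shared between them were counted is not known here. In sum the 3 genes gave 1023.5 ± 23.2 FPKM in the controls, 1086 ± 11.9 with GO and 1074 ± 20.6 with GONH2, and both treated groups lay above the controls (exact permutation tests, p = 0.1 each, the smallest possible). That sum was 4.65 ± 0.139 times the FPKM of vha-13 in the controls and 4.83 ± 0.176 times with GO, and it was 4.89 times in the 2 GONH2 libraries with a value above 0. The ratio overlapped between control and GO (exact permutation test, p = 0.2). It did not overlap between control and GONH2, where p was 0.2 in the same test, the smallest p that 3 against 2 libraries allow.

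vha-17, for the small subunit e, had the highest difference with GO of the V0 genes after vha-6. It had 197, 221 and 199 FPKM in the controls, 249.9, 239 and 215 with GO and 220.1, 213 and 225 with GONH2. The lowest GO library lay under the highest control, so the groups overlapped (0.19 ± 0.062, unadjusted p = 0.0147, adjusted p = 0.388). nspg-11 on the opposite strand shares 37 exon bases with vha-17 and had 11.9 to 14.9 FPKM over the 9 libraries. vha-4, which encodes subunit c'' of the ring, and vha-16, for subunit d that joins the ring to the shaft, had adjusted p values of 0.848 and 0.854 with GO. Their means in the controls, with GO and with GONH2 were 187 ± 8.603, 196 ± 5.37 and 188 ± 9.61 FPKM for vha-4. For vha-16 they were 172 ± 9.43, 179 ± 2.88 and 171 ± 2.32 FPKM.

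Subunit a, the part of V0 that forms the proton channels with the ring, is made by unc-32, vha-5, vha-6 and vha-7. The intestinal isoform vha-6 (WBGene00006915, chromosome II, 11435210 to 11438452, reverse strand) had 78.4, 79.01 and 77.9 FPKM in the controls, 92.5, 90.8 and 90.9 with GO and 81.5, 81.2 and 70.8 with GONH2. All GO libraries lay above every other library, GONH2 replicates 1 and 2 lay just above the controls, and GONH2 replicate 3 lay below them. The difference of GO from control was 0.22 ± 0.052 on the log2 scale, or 16.5% of the mean FPKM (95% interval 0.10 to 0.34, unadjusted p = 0.00253), and it did not pass over all genes (adjusted p = 0.14). GONH2 lay −0.23 ± 0.052 from GO (unadjusted p = 0.00176, adjusted p = 0.388) and −0.013 ± 0.052 from control (adjusted p = 1).

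The call for vha-6 turned on 1 library. Without GONH2 replicate 3, which changes only the spread used for GO against control, the adjusted p was 0.00748. In a fit to the control and GO libraries alone it was 0.0210. Over the 22 alternatives the difference ran from 0.19 to 0.22 and the adjusted p from 0.00748 to 0.383. Without GONH2 replicate 3 the difference of GONH2 from GO was −0.17 ± 0.028 (adjusted p = 0.236), and GONH2 lay 0.053 above control. Of the 8 intestine markers 1 rose with GO (ges-1, a gut esterase, 0.40 ± 0.062, adjusted p = 0.0177) and 0 fell, where 1.08% and 0.179% of all genes did. The median difference of the 8 markers was 0.014. The lowest of them was mtl-2, a metallothionein gene, at −0.33 ± 0.067 (adjusted p = 0.0693), with all GO libraries below the controls, and 4 of the 8 differences were positive. Their summed level was 616 to 695 FPKM in the controls, 594 to 675 with GO and 624 to 632 with GONH2, and the part of the intestine's share of RNA in the value of vha-6 was not tested.

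The other isoforms did not separate in this way. unc-32, which is broadly present and needed in neurons, had 77.4, 76.7 and 75.5 FPKM in the controls, 80.4, 82.00 and 76.4 with GO and 77.8, 76.3 and 78.1 with GONH2. Its interval for GO was −0.02 to 0.13 (adjusted p = 0.801). vha-5, of the excretory cell and hypodermis, had 37.7, 41.3 and 32.7 FPKM in the controls, 33.9, 36.2 and 37.5 with GO and 36.096, 35.5 and 35.4 with GONH2. The controls of vha-5 spanned both treated groups. The 7 excretory cell markers gave 95.4 to 103 FPKM in sum in the controls, 104.6 to 104.8 with GO and 92.1 to 109 with GONH2. vha-7, of the hypodermis and uterus, had 39.02, 43.6 and 37.1 FPKM in the controls, 36.6, 39.8 and 36.4 with GO and 35.8, 35.1 and 37.1 with GONH2. All GONH2 libraries of vha-7 lay below the controls (−0.14 ± 0.063, unadjusted p = 0.0513, adjusted p = 0.943), and those of GO overlapped them. Without control replicate 2, the highest control of vha-7, the difference of GONH2 was −0.080.

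**Figure D3:**
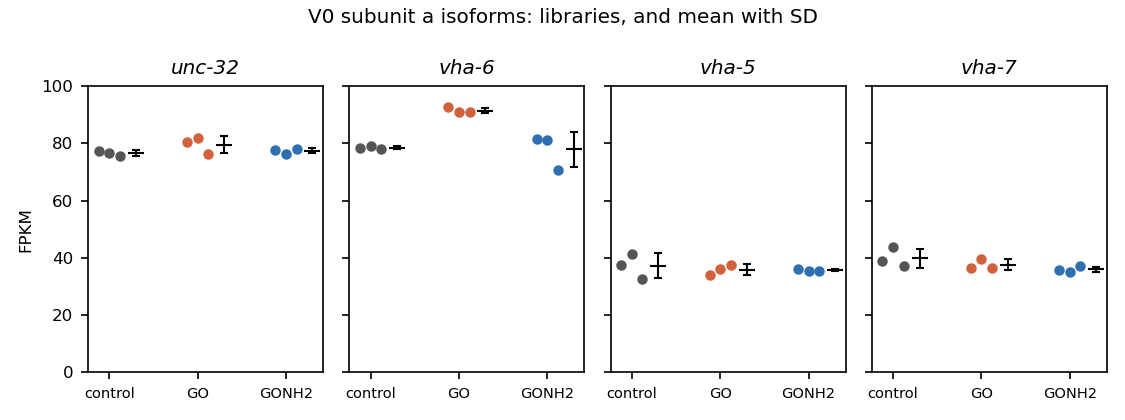
FPKM of the subunit a genes unc-32, vha-6, vha-5 and vha-7 in the 3 libraries of each group, with the mean and SD beside them. Only vha-6 shows GO libraries above all others, at 90.8 to 92.5 FPKM, and its GONH2 replicate 3 stands at 70.8 FPKM.

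Set against each other, unc-32 and vha-6 each made up about the same part of the subunit a FPKM in the controls, 33.0% ± 1.002 and 33.8% ± 1.03, with 16.004% ± 1.27 from vha-5 and 17.2% ± 0.817 from vha-7. With GO the part of vha-6 was 37.4% ± 0.803, or 3.58 percentage points more than in the controls, and that of vha-7 was 15.4% ± 0.533, or −1.81 points. Neither share overlapped between GO and control (two-sided exact permutation tests, p = 0.1 each, the smallest possible; 0.321 after Benjamini-Hochberg adjustment over the 45 tests of shares, ratios and sums). With GONH2 the share of vha-6 was 34.3% ± 2.0002 and overlapped the controls (exact permutation test, p = 0.8). In sum the isoforms gave 232 ± 8.78 FPKM in the controls, 244 ± 3.92 with GO and 227 ± 5.05 with GONH2, with GO above the controls (exact permutation test, p = 0.1). Relative to vha-12 of V1, the sum was 1.38 ± 0.0439 in the controls, 1.45 ± 0.0993 with GO and 1.34 ± 0.0607 with GONH2, and these ranges overlapped. Within V1, the FPKM of vha-10 was 1.51 ± 0.0190 times that of its stalk partner vha-8 in the controls, 1.41 ± 0.0525 times with GO and 1.42 ± 0.0569 times with GONH2. Both treated groups lay below the controls in this ratio (exact permutation tests, p = 0.1 each, the smallest possible). After adjustment over the 45 tests this p is 0.321, as is every other p of 0.1 among them. The ratio contains vha-10, whose lower GONH2 values are given above, and is not a separate result. The same holds for the shares and the sum of subunit a, which contain the vha-6 values given above. The share of vha-7 has vha-6 in its divisor. The shares of subunits c and H, the sum of c and the other ratios are likewise made from gene values already given.

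The accessory proteins of V0 are VHA-19, related to mammalian Ac45, and VHA-20, related to the prorenin receptor. vha-19 had 136, 138 and 128 FPKM in the controls, 140.1, 141 and 144 with GO and 135, 136 and 139 with GONH2. Its GO libraries lay above all of the controls (0.082 ± 0.033, unadjusted p = 0.0349, adjusted p = 0.572), and without control replicate 3 the difference was 0.050. vha-20 had 116, 119.2 and 107 FPKM in the controls, 111, 118 and 116 with GO and 110.1, 114.7 and 116 with GONH2, with all groups overlapping. otub-4 on the opposite strand shares 99 exon bases with vha-19 and had 50.8 to 56.4 FPKM. In all, 9 of the 31 members share exon bases with another protein-coding gene, 2 of them (vha-13 and vha-2) on the same strand.

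The V-ATPase genes differed between control libraries in a shared way. For 18 of the 20 genes without a listed zero, control replicate 2 was the highest control and control replicate 3 the lowest, a pattern found in 19.98% of 12775 genes. This order was picked from the values of these same genes, so the count describes them and is not a test. The 12775 genes also varied more within groups (median SD 0.11 on the log2 scale) than the V-ATPase genes (0.056). As a median over the 20 genes, control replicate 2 lay 0.046 above the mean of the 9 libraries on the log2 scale and control replicate 3 lay at −0.072, while the same medians over all genes were 0.0096 and −0.033. The medians of the 20 genes were 0.033, 0.042 and 0.022 in the GO libraries and −0.013, −0.021 and 0.0089 in the GONH2 libraries, so GO lay within the span of the controls. After median-of-ratios scaling 9 of the 20 genes had the pattern, against 14.2% of all genes, and after quantile normalisation 15, against 13.5%. What sets these control libraries apart was not tested.

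**Figure D4:**
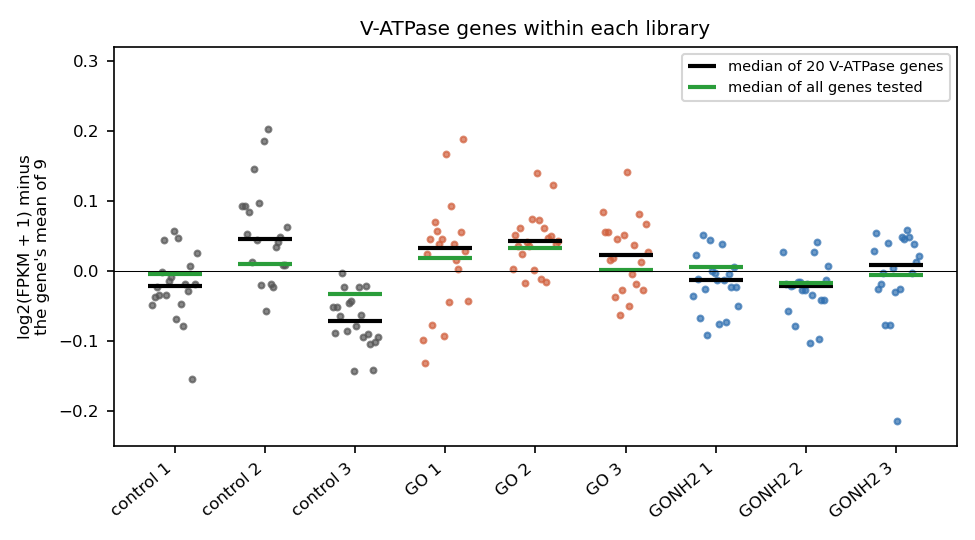
Deviation of log2(FPKM + 1) from the gene's mean of 9 libraries for the 20 V-ATPase genes without a listed zero (points), by library, with their median (black bar) and that of all genes tested (green bar). Control replicate 2 has a median of 0.046 and control replicate 3 of −0.072, and the GO medians of 0.022 to 0.042 lie between them.

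Among the lysosome membrane proteins, 0 of 4 genes tested passed, against 1.26% of all genes with GO. lmp-1, a homologue of the LAMP glycoproteins that line the lysosome membrane (WBGene00003053, chromosome X, 6376459 to 6377684, reverse strand), had 215, 212 and 219 FPKM in the controls, 225, 238 and 228 with GO and 209, 221 and 241 with GONH2. All GO libraries lay above the controls (0.098 ± 0.049, adjusted p = 0.73), and GONH2 spanned both. cup-5, the mucolipin channel, had 44.5 ± 2.300 FPKM in the controls, 47.2 ± 1.24 with GO and 45.4 ± 2.29 with GONH2. laat-1, which exports lysine and arginine from the lysosome, had 90.8 ± 8.81, 89.1 ± 2.696 and 92.1 ± 1.47 FPKM. Neither cup-5 nor laat-1 had an interval reaching a 1.25-fold change in any comparison.

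The homologues of the cholesterol transporter NPC1, ncr-1 and ncr-2, were scarce. ncr-1 had 4.705, 4.02 and 5.17 FPKM in the controls, 8.13, 5.97 and 5.17 with GO and 6.47, 5.65 and 5.105 with GONH2. The lowest GO library met the highest control, and the difference with GO was (0.38 ± 0.16, unadjusted p = 0.0399, adjusted p = 0.6). Without GO replicate 1, the highest library, it was 0.22. ncr-2 had 0.341, 0.318 and 0.262 FPKM in the controls, 0.524, 0.359 and 0.432 with GO and 0.329, 0.201 and 0.398 with GONH2, under the filter, and was not tested.

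The gut granule genes were all low in level and 0 of 3 passed, against 1.26% of all genes with GO. glo-1, a Rab GTPase of the gut granules (WBGene00011083, chromosome X, 9872795 to 9882212, reverse strand), had 8.92, 10.4 and 8.58 FPKM in the controls, 12.96, 11.04 and 11.4 with GO and 12.3, 9.84 and 10.8 with GONH2. All GO libraries lay above the controls, and GONH2 overlapped both groups (0.31 ± 0.11 for GO, unadjusted p = 0.0166, adjusted p = 0.41; 0.22 ± 0.11 for GONH2, adjusted p = 0.987). Without GONH2 replicate 1 the difference of GONH2 was 0.14. glo-3 had 3.41, 3.25 and 2.904 FPKM in the controls, 4.03, 3.801 and 3.37 with GO and 3.56, 2.98 and 3.72 with GONH2. glo-4, which acts with glo-1, had 8.703, 7.84 and 8.59 FPKM in the controls, 9.32, 8.79 and 9.02 with GO and 8.98, 8.27 and 8.45 with GONH2. The GO libraries of glo-4 lay above the controls and those of glo-3 overlapped them. The adjusted p with GO was 0.821 for glo-3 and 0.86 for glo-4, and their intervals reached −0.074 to 0.43 and −0.063 to 0.26.

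Of the regulators 0 of 2 passed, against 1.26% of all genes with GO. hlh-30 (WBGene00020930, chromosome IV, 4014793 to 4034951, reverse strand) had 39.1, 39.03 and 34.3 FPKM in the controls, 36.7, 40.5 and 39.7 with GO and 34.6, 38.99 and 43.9 with GONH2, with all groups overlapping (0.056 ± 0.089 for GO and 0.057 ± 0.089 for GONH2; adjusted p = 0.969 and 1). This is the level of the transcript and says nothing of where the HLH-30 protein was in the cell. ppk-3, the PIKfyve-type lipid kinase of the endosome and lysosome membrane, had 10.9, 10.5 and 11.3 FPKM in the controls, 11.3, 11.2 and 11.04 with GO and 10.8, 10.1 and 10.2 with GONH2. The GONH2 libraries of ppk-3 lay below those of GO and overlapped the controls (−0.10 ± 0.06, adjusted p = 1).

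Counted over all roles, GO and control did not overlap in 7 of the 30 members tested, all of them higher with GO (vha-1, vha-2, vha-6, vha-19, lmp-1, glo-1 and glo-4), where 9.0% of all genes were higher and 3.12% lower without overlap. After median-of-ratios scaling 4 members were higher and 0 lower without overlap, where 6.48% and 5.74% of all genes were. After quantile normalisation 4 were higher and 1 lower, where 5.15% and 8.66% of all genes were. With GONH2, 1 member was higher and 2 lower without overlap, where 5.18% and 3.65% of all genes were. GONH2 lay below GO without overlap in 8 members and above it in 0, where 7.09% and 2.93% of all genes did. The 8 include vha-13, with its listed zero. Its 2 GONH2 libraries above 0, at 219 and 215.6 FPKM, also lay below the lowest GO library, at 220.3. After median-of-ratios scaling 5 members lay below GO and 1 above it, where 5.0% and 5.11% of all genes did, and after quantile normalisation 3 lay below and 2 above, where 3.99% and 6.23% of all genes did. GO and GONH2 were each compared with the same control libraries, so their differences from control are not independent.

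Genes that act beside the members were looked at in lists drawn up by name. Among 12 genes of membrane tethering and fusion 0 passed in any comparison. The smallest p with GO there were those of rab-5, the early endosome GTPase (0.067, adjusted p = 0.759), and vps-8 of the CORVET complex (0.099, 0.835). Among 12 trafficking adaptors, 0 passed, with dsbn-1 (dysbindin) at 0.11 and blos-2 at 0.092 (adjusted p = 0.423 and 0.793). Among 11 genes of TOR signalling at the lysosome, which the V-ATPase helps to activate through the Ragulator complex, 0 passed. The Ragulator genes lmtr-3 and lmtr-2 had the smallest p (0.098 and 0.11, adjusted p = 0.26 and 0.687). Among 24 autophagy genes 0 passed, led by atg-9 (−0.16, adjusted p = 0.349) and epg-4 (0.20, 0.465). The sperm subunit B gene spe-5 and the rabconnectins rbc-1 and rbc-2, regulators of pump assembly, did not pass either, with rbc-1 at 0.086 and rbc-2 at −0.05 (adjusted p = 0.926 and 0.961). At an unadjusted p under 0.05 with GO there were 0, 1, 1, 2 and 0 genes in these 5 lists of 12, 12, 11, 24 and 3 genes. Of all genes tested 7.74% had such a p with GO and 1.26% passed, so the counts are not a result about the lists.

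Among genes of the lysosome outside the members, calls were made for enzymes of its lumen. Of 17 other lysosome membrane proteins and transporters 0 passed in any comparison, where 1.26% of all genes passed with GO. At an unadjusted p under 0.05 with GO there was 1, against 7.74% of all genes. lmp-2, a second LAMP homologue, and spin-2, a spinster transporter, had the smallest p there (0.37 and 0.29, adjusted p = 0.461 and 0.692). Of 28 soluble lysosomal enzymes, 6 rose and 4 fell with GO, beside 1.08% and 0.179% of all genes. The protease genes asp-1 and asp-3 rose by 0.47 and 0.35, the glucocerebrosidase homologues gba-1 and gba-4 by 0.53 and 0.73, the lipase gene lipl-5 by 0.28 and the glucosidase gene aagr-1 by 0.37 (adjusted p = 0.00025, 0.000927, 0.00151, 0.00772, 0.00902 and 0.0297). The sphingomyelinase gene asm-3, the lipase gene lipl-3, the nuclease gene nuc-1 and the peptidase gene cpz-1 changed by −1.72, −0.63, −0.21 and −0.16 (adjusted p = 0.00046, 0.0216, 0.0168 and 0.0202). With GONH2, asp-1 rose and asm-3 fell (0.40 and −1.47, adjusted p = 0.00245 and 0.00343), beside 0.358% and 0.0778% of all genes. asm-3 was low, with 3.21 ± 0.403 FPKM in the controls, 0.283 ± 0.147 with GO and 0.517 ± 0.106 with GONH2. It reached 1 FPKM in the control libraries alone, and so met the filter only through the group in which it was higher. With a mean of at least 5 FPKM required, 21 enzymes were tested. Of these, 6 rose and 2 fell with GO, and 3 rose and 0 fell with GONH2. Between GONH2 and GO 0 enzymes passed, where 0.0389% of all genes were higher and 0.0934% lower. At an unadjusted p under 0.05 there were 5 of 28 enzymes in that comparison, against 4.65% of all genes. Over the 22 alternatives 5 to 6 enzymes rose and 1 to 4 fell with GO, and the 4 became 1 or 2 without any single GO or control library. With GONH2 1 to 5 rose and 0 to 1 fell, while 0 of the membrane proteins passed. The difference in counts between enzymes and membrane genes was not tested, and the enzyme list was drawn up with results for some of its genes known. The median differences with GO were 0.068 for the enzymes, 0.094 for the other membrane proteins and 0.055 for the members.

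**Figure D5:**
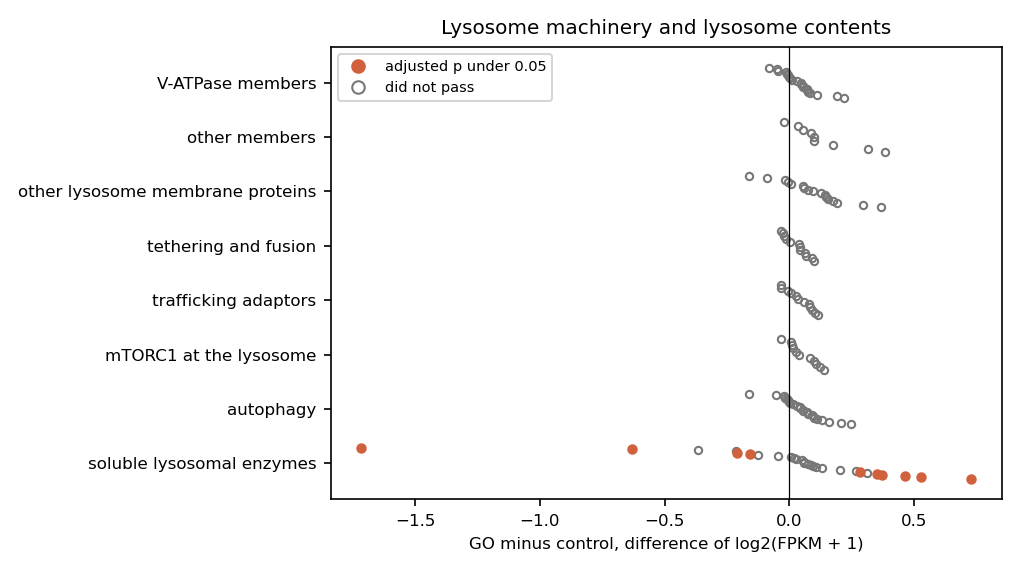
Difference of log2(FPKM + 1) between GO and control for each gene of the members and of 6 lists of neighbouring function, 1 row a list. Filled points passed at an adjusted p under 0.05, and they occur among the soluble lysosomal enzymes alone, where 6 lie above 0 and 4 below.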

How the data were processed

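The authors deposited FPKM for 46284 WormBase gene IDs in 9 libraries, made per the labels' protocols from total RNA with a stranded TruSeq kit and paired-end reads. The sources used here do not give the aligner, counting program, genome build or strand setting. The submitters' processing notes list DESeq2 with no role, and no count method was run. Symbols and positions come from the Ensembl release 115 annotation of WBcel235, and all 31 members matched. Of the list genes named, 2 membrane proteins had no match by symbol and are not analysed here. No sequence was used.

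Values were taken as log2(FPKM + 1), and folds are on that scale, which understates the change of low genes. Genes that reached 1 FPKM in 3 or more libraries were kept (12849, of which 12242 protein-coding). limma 3.58.1 in R 4.3.3 was fitted to all 9 libraries with group as its term and a mean-variance trend (residual degrees of freedom 6, prior 2.47). Shares and ratios were tested with exact permutation tests in scipy 1.17.1. The spacing of low FPKM values gave no whole reads (the commonest spacing held for 5.42% to 16.4% of low genes), so no counting interval is given. The scripts were tested on simulated data. Zeros in genes with a median of at least 10 FPKM over the libraries above 0 (157 genes, of which only 74 passed the filter) were kept. Members and lists were chosen with earlier results of these data known. Values are printed in every library for the subunit a genes, the 3 members with the smallest p in each comparison, and the highest and lowest of each role; single libraries of other members were added after their values were seen. Alternatives covered the added value, filter, scaling, variance model, samples fitted, replicate block, left-out libraries, zeros, thresholds and protein-coding genes.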

Additional observations from a re-analysis of the deposited data

How the results depend on the processing

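No member passed under any of the 22 alternatives except vha-6, which was called higher with GO in 2 of them: in the fit to the 2 groups compared, where 1 member was higher, and without GONH2 replicate 3. Leaving out 1 library gave 0 to 1 members higher and 0 lower with GO, and 0 in both directions for GONH2 against control and against GO. Of 659 member values per comparison, 31, 45 and 30 changed sign without being called. Over all genes, leaving out 1 library gave 92 to 144 higher and 15 to 26 lower with GO, 20 to 47 and 4 to 11 with GONH2, and 0 to 6 and 1 to 15 for GONH2 against GO. For GO against control an adjusted p of 0.01 gave 88 higher and 12 lower, and 0.1 gave 35 lower. For GONH2 against control the 46 higher and 10 lower became 20 and 4 at 0.01, 27 and 5 with no filter, 22 and 5 with no trend, and 27 and 6 in the fit to 2 groups. The 46 became 74 at 0.1 and 71 with array weights. For GONH2 against GO the 5 higher and 12 lower became 3 and 5 at 0.01, 19 lower at 0.1, 3 higher with a mean of at least 5 FPKM, 5 lower with no trend and 36 lower with array weights. The replicate numbers in the titles gave no clear sign of pairing. Same-numbered libraries of different groups correlated at −0.11 to 0.251 in their deviations, and differently numbered ones at −0.352 to 0.348. With the replicate block GONH2 against control gave 25 higher and 4 lower, and GONH2 against GO 3 and 5, with 0 members called. The causes of these shifts were not tested. Depth is unknown. Apart from vha-13 with its zero kept, the low genes ncr-1, glo-1 and glo-3 had the widest intervals with GO, and ncr-2 was not tested in the main fit.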
